A study of Mus musculus with 3 samples.

Results

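The genes described here are the nuclear genes for subunits of respiratory chain complexes I, III and IV. They were taken as the features whose symbols start with Ndufa, Ndufb, Ndufc, Ndufs, Ndufv, Uqcr, Cox4, Cox5, Cox6, Cox7 or Cox8, with the assembly factors left out. The rule found 67 of the 21750 features, of which 38 belong to complex I, 8 to complex III and 21 to complex IV. The last number includes Ndufa4 and Ndufa4l2, which are counted with complex IV, and Cox5b-ps, a copy of Cox5b. The rule reads symbols only.

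The library came from the hippocampus of Aldh1l1CreERT2;Rosa26-LSL-tdTomato mice injected there with AAV-TIGRi-Hopx, a Cre-dependent vector for knockdown of Hopx that also carries EGFP. Aldh1l1 drives a tamoxifen-dependent Cre in astrocytes, and tdTomato then marks the recombined cells and their progeny. Cells of 5 mice were pooled 3 weeks after tamoxifen and sorted for tdTomato and EGFP, and they gave 1 single-cell library with no control library. The series also lists 2 chromatin immunoprecipitation samples from primary astrocytes (anti-Flag and IgG), which are not analysed here. With 1 pooled library there is no replicate, so no test between conditions or cell types was possible, and every interval below covers counting error only.

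After filtering, 6224 cells with 39092951 unique molecular identifiers (UMIs, each standing for 1 captured RNA molecule) were left, with a median of 5479.5 UMIs per cell. A gate on 8 markers per class, none of them a member gene, assigned 5493 cells, and 731 (11.7%) stayed unassigned. The gate placed 499 cells just inside its limits and 338 just outside. The sort label and the cells differed: 2426 cells were microglia-like, 1475 endothelial-like, 563 choroid plexus-like, 544 ependymal-like, 198 border macrophage-like, 119 astrocyte-like and 84 oligodendrocyte-like. Smaller classes, among them 24 neuron-like cells, are given beside these where they bear on a gene. In each of the 7 classes of at least 50 cells all 8 own markers were detected, and their summed level exceeded that of any other class's markers. The gate selects cells on these same markers, so this is no independent check of the classes. Hopx was at 538 CPM (UMIs of the gene per 1000000 UMIs of the class; Poisson interval 477 to 605) in astrocyte-like, 331.6 in choroid plexus-like, 173 in oligodendrocyte-like (142 to 209) and 142 in ependymal-like cells, and at 2.33 to 3.41 CPM in the other 3 classes. Ependymal-like cells with an EGFP UMI held 70.3 CPM of Hopx (45.0 to 105; 24 UMIs), against 150 (137 to 163) in those without.

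The respiratory chain sits in the inner mitochondrial membrane. Complex I takes electrons from NADH, complex III passes them from ubiquinol to cytochrome c, and complex IV hands them to oxygen, while all 3 pump the protons that ATP synthase uses. Their catalytic cores are encoded in part by mitochondrial DNA and the other subunits by nuclear genes. Several complex IV subunits exist as a ubiquitous form and a tissue form. The epithelium of the choroid plexus secretes cerebrospinal fluid by active ion transport and is known to be rich in mitochondria.

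The promoters of an isoform pair that the results turn on, Cox8a and Cox8b, are shown first because they differ in CpG content as well as in where the genes were expressed. Each line holds the 120 bases upstream of the annotated start, read 5′ to 3′ on the gene's strand, from the RefSeq promoter windows of build GRCm38.p6. The capitals mark CG pairs. Cox8a, the ubiquitous form, lies on the minus strand at chr19:7217617-7217736, and Cox8b, the form known from heart and skeletal muscle, on the minus strand at chr7:140900447-140900566.
Cox8a: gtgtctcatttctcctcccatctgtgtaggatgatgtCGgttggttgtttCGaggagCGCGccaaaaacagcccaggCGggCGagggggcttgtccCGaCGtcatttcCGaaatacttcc
Cox8b: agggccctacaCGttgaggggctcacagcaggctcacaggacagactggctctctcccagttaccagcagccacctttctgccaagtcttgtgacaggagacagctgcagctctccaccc
The Cox8a stretch held 9 CG pairs and the Cox8b stretch 1. Over the whole window, from 250 bases before to 50 after the start, the observed CG count was 0.842 of that expected from base composition for Cox8a and 0.115 for Cox8b.

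Windows were found for 52 of the 67 members, 54 windows in all. Their median observed-to-expected CG ratio was 0.801, against 0.384 over all 32851 windows of the table, and 43 of the 54 (79.6%) reached 0.6, against 35.8%. Among the 11 windows under 0.6 were those of 4 tissue isoforms, Cox8b (0.115), Cox7a1 (0.333), Cox6b2 (0.432) and Cox7b2 (0.564), and the lowest of the ubiquitous subunits was Cox7b (0.368). Motifs of factors known to act on respiratory genes were searched on both strands as exact letters. The NRF-1 core, a palindrome of 10 letters, was in 3 of the 54 windows (5.56%, against 0.971% of all windows). The ETS core CCGGAAG, which GABPA binds, was in 9 (16.7%, against 8.86%), and a YY1 motif of 11 letters in 4 (7.41%, against 0.633%). The ERR motif TCAAGGTCA was in 0 (against 0.423%). Any of the 4 was in 15 windows (27.8%, against 10.5%). The NRF-1, ETS and YY1 letters hold CG pairs and the ERR letters do not. The part of the higher CG content of the member windows in these shares was not tested. Cox6a1, the ubiquitous form of a second pair described below, gives an example. Its window held the NRF-1 core as well as the ETS core, and only the ETS match lies within the stretch printed. Its 120 bases on the minus strand at chr5:115348959-115349078 are printed with the ETS match in capitals, on the opposite strand to the letters above and starting 16 bases before the start.
Cox6a1: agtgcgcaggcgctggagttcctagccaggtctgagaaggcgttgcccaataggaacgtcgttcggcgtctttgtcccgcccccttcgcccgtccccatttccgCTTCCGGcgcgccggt
These matches describe letters only, and the factors' binding was not measured.

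Choroid plexus-like cells carried by far the highest share of respiratory chain RNA. The 67 genes together made up 5.48% of their UMIs (Poisson interval 5.46 to 5.49). In ependymal-like cells they made up 1.27% (1.26 to 1.28), in oligodendrocyte-like cells 1.24% (1.21 to 1.27) and in astrocyte-like cells 1.08% (1.06 to 1.11). Endothelial-like cells followed with 0.899% (0.892 to 0.907), microglia-like cells with 0.753% (0.749 to 0.757) and border macrophage-like cells with 0.732% (0.714 to 0.750). The intervals of the neighbours ependymal-like and oligodendrocyte-like overlapped, and so did those of the microglia-like and border macrophage-like classes. Of the small classes, the 24 neuron-like cells stood at 1.33% (1.26 to 1.40) and the 27 B cell-like cells at 1.46% (1.41 to 1.52). The 2 oligodendrocyte precursor-like cells stood at 1.61% (1.46 to 1.77).

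Choroid plexus-like cells also stood apart cell by cell, while the other classes overlapped. All 563 choroid plexus-like cells were above 1.85%, the 99th percentile of the cells of the other 6 classes. Their median was 5.42% and their 5th to 95th percentile 3.49% to 7.98%, against, for example, 0.562% to 1.81% in ependymal-like and 0.321% to 1.12% in microglia-like cells. Choroid plexus-like cells were also the deepest, with a median of 10880 UMIs. Among cells of 3000 to 8000 UMIs, a window chosen after seeing the data, the share was 5.50% in choroid plexus-like, 1.23% in ependymal-like, 0.909% in endothelial-like and 0.693% in microglia-like cells. The median depths in that window were 5532.5, 5421, 4104 and 5760 UMIs in the same order, so depth was closer but not equal. In clusters made without the member genes, choroid plexus-like cells were the main class of 2. One of 563 cells, 529 of them choroid plexus-like by the gate, was at 5.69%, and one of 39 cells, 34 of them choroid plexus-like, with a median of 21800 UMIs, at 3.70%.

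**Figure D1:**
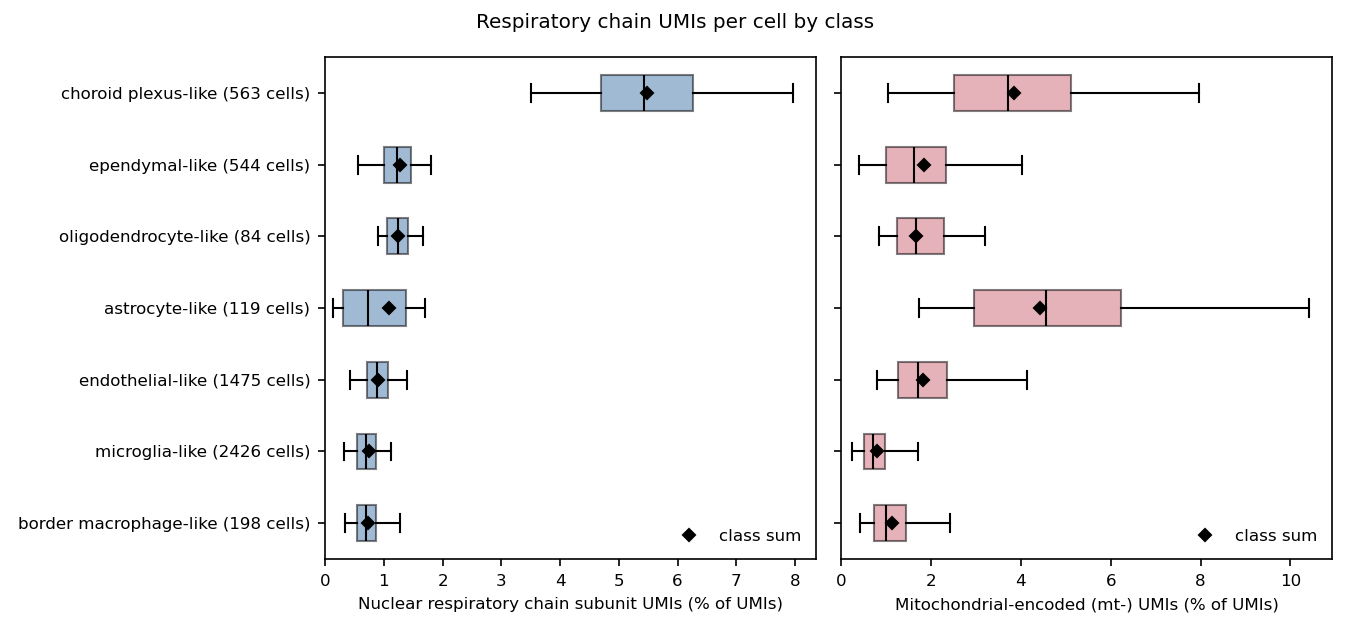
Percent of each cell's UMIs from the 67 nuclear respiratory chain genes (left) and from the 13 mitochondrial-encoded protein genes (right), by class. Boxes span the quartiles with the median as a line, whiskers the 5th to 95th percentile of cells, and diamonds mark the sum over the class. The choroid plexus-like box lies above all others on the left (median 5.42%), while on the right the astrocyte-like class has the highest sum (4.43%).

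Compared with the unweighted mean of the other 6 classes, the summed level in choroid plexus-like cells was 5.50-fold higher. Of the 60 members that passed a mean of 10 CPM over the classes, 57 were at least 2-fold higher there, against a background of 8.53% of all 10489 features tested, and 41 were at least 4-fold higher, a fold chosen after seeing the data (background 2.83%). At least 2-fold lower were 0 members (background 55.8%). Cox8b and Cox7a1 passed the level filter only through this class, so their higher level was fixed by the filter. The members' median log2 ratio was 2.19, against -1.26 for all features. Ttr, the transthyretin gene, alone made up 21.1% of the choroid plexus-like UMIs, which lowers the CPM of other genes there. With mitochondrial UMIs and every gene above 1% removed from the totals, the median of all features was -0.89 and the summed ratio 7.11. With median-of-ratios scaling they were -0.46 and 9.59. Of these 10489 features, over which each of the medians was taken, 895 were at least 2-fold higher and 5848 lower with total UMIs, 1317 and 5005 with the reduced total and 1950 and 4136 with median-of-ratios scaling. Not past 2-fold were Cox7a2l (1.38), Ndufs1 (1.92) and Ndufb4 (1.97), and Ndufa9 (2.03) and Ndufa10 (2.05) were just past it. The last 2 of the former passed with either other scaling, and Cox7a2l with median-of-ratios scaling (2.29).

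Transcripts of choroid plexus genes were also counted in other classes. Ttr was at 209 CPM in microglia-like and at 279 CPM in endothelial-like cells, 0.0990% and 0.132% of its choroid plexus-like level. Cox8b in the other 6 classes lay between 0 and 0.194% of its choroid plexus-like level, a range that spans those of Ttr. Kl, another choroid plexus marker, lay between 0 and 0.429%, and Folr1 between 0 and 0.473% except in ependymal-like cells, where it was at 18.1%. The part of free RNA in these values was not tested. In turn, P2ry12, a purinergic receptor gene among the microglial markers, was at 0.314 CPM in choroid plexus-like cells. Kl and P2ry12 are markers of the gate, so the gate itself limits their levels outside their own classes.

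**Figure D2:**
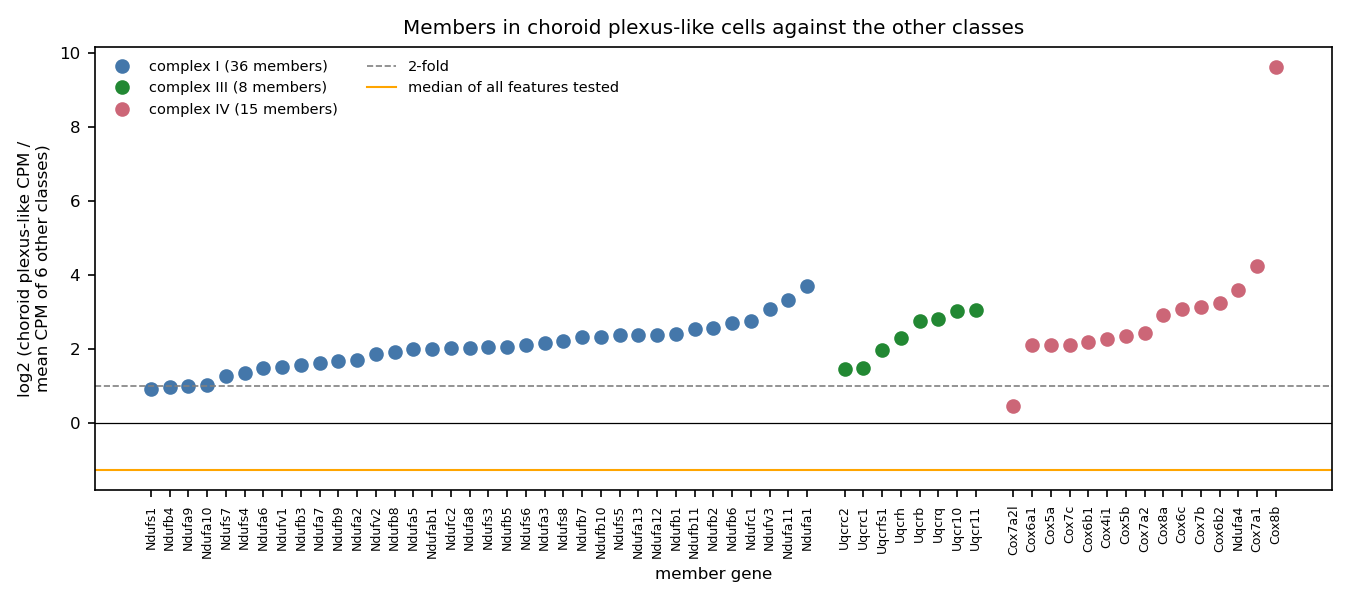
Log2 ratio of the CPM of 59 of the tested members in choroid plexus-like cells to the mean CPM of the 6 other classes, ordered within complex I, III and IV. Dashed line, 2-fold; orange line, the median of all features (-1.26). All points but 3 lie above the dashed line, and Cox8b, which passed the filter only through this class, stands apart at the right.

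Complex I members together were 4.53-fold higher in choroid plexus-like cells, with 35 of 37 tested members past 2-fold (background 8.53%). The accessory subunits, which surround the catalytic core, were 4.72-fold higher in sum, and the 7 nuclear core subunits, which carry the flavin, iron-sulfur clusters and quinone site, 3.19-fold (8.298 and 5.601 with median-of-ratios scaling). That split was chosen after the values were seen. Ndufa1, a small membrane-arm subunit, was at 1258 CPM in choroid plexus-like cells and between 75.4 (oligodendrocyte-like) and 118 CPM (endothelial-like) in the others, a ratio of 13.2. Ndufa11, another membrane-arm subunit, was at 1322 CPM and between 65.9 and 206 CPM elsewhere. Ndufv3 was at 713 CPM, against 55.6 in astrocyte-like and 119 in ependymal-like cells.

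The ratios of core and accessory subunits overlapped. Among core subunits they ran from 1.92 for Ndufs1 to 4.70 for Ndufs8, with Ndufs3 at 4.17 and Ndufv2 at 3.70, and the accessory subunits Ndufb4, Ndufa9 and Ndufa10 given above lay near the lower end. Ndufs1, the largest iron-sulfur subunit, was at 108 CPM in choroid plexus-like cells and at 107 CPM in astrocyte-like cells, where it was the member with the highest ratio to the other classes (1.92). It was at 77.0 CPM in oligodendrocyte-like, 67.2 in ependymal-like, 32.6 in endothelial-like, 29.6 in microglia-like and 21.6 in border macrophage-like cells. Ndufv1, the flavin-binding subunit, was at 184 CPM in choroid plexus-like cells and 35.2 to 85.0 CPM elsewhere.

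Complex III members were 6.23-fold higher in sum, and all 8 were past 2-fold (background 8.53%). The small supernumerary subunits had the largest ratios. Uqcr11 was at 1925 CPM in choroid plexus-like cells and 134 to 326 CPM elsewhere (ratio 8.44), and Uqcr10 at 1745 CPM and 136 to 290.3 CPM elsewhere (8.15). The large core proteins Uqcrc1 and Uqcrc2 had ratios of 2.86 and 2.80, and Uqcrfs1, the Rieske iron-sulfur protein, 3.94.

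Complex IV members were 6.57-fold higher in sum, and 14 of the 15 tested were past 2-fold (background 8.53%). Ndufa4, a subunit once assigned to complex I, was the most abundant member of choroid plexus-like cells with 4522 CPM, against 234 in microglia-like and 486 CPM in oligodendrocyte-like cells, the lowest and highest of the others (ratio 12.1). Cox8a was at 4212 CPM (362 to 674 elsewhere) and Cox6c at 3177 CPM (238 to 598 elsewhere). The exception was Cox7a2l, a factor that joins complexes III and IV into supercomplexes. It was at 207 CPM in choroid plexus-like and 208 CPM in endothelial-like cells, at 199 in microglia-like, 173 in border macrophage-like, 153 in ependymal-like and 112 in oligodendrocyte-like cells, and at 53.7 CPM in astrocyte-like cells. Its levels in the first 3 of these classes all lay within its counting interval in choroid plexus-like cells (196 to 218).

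**Figure D3:**
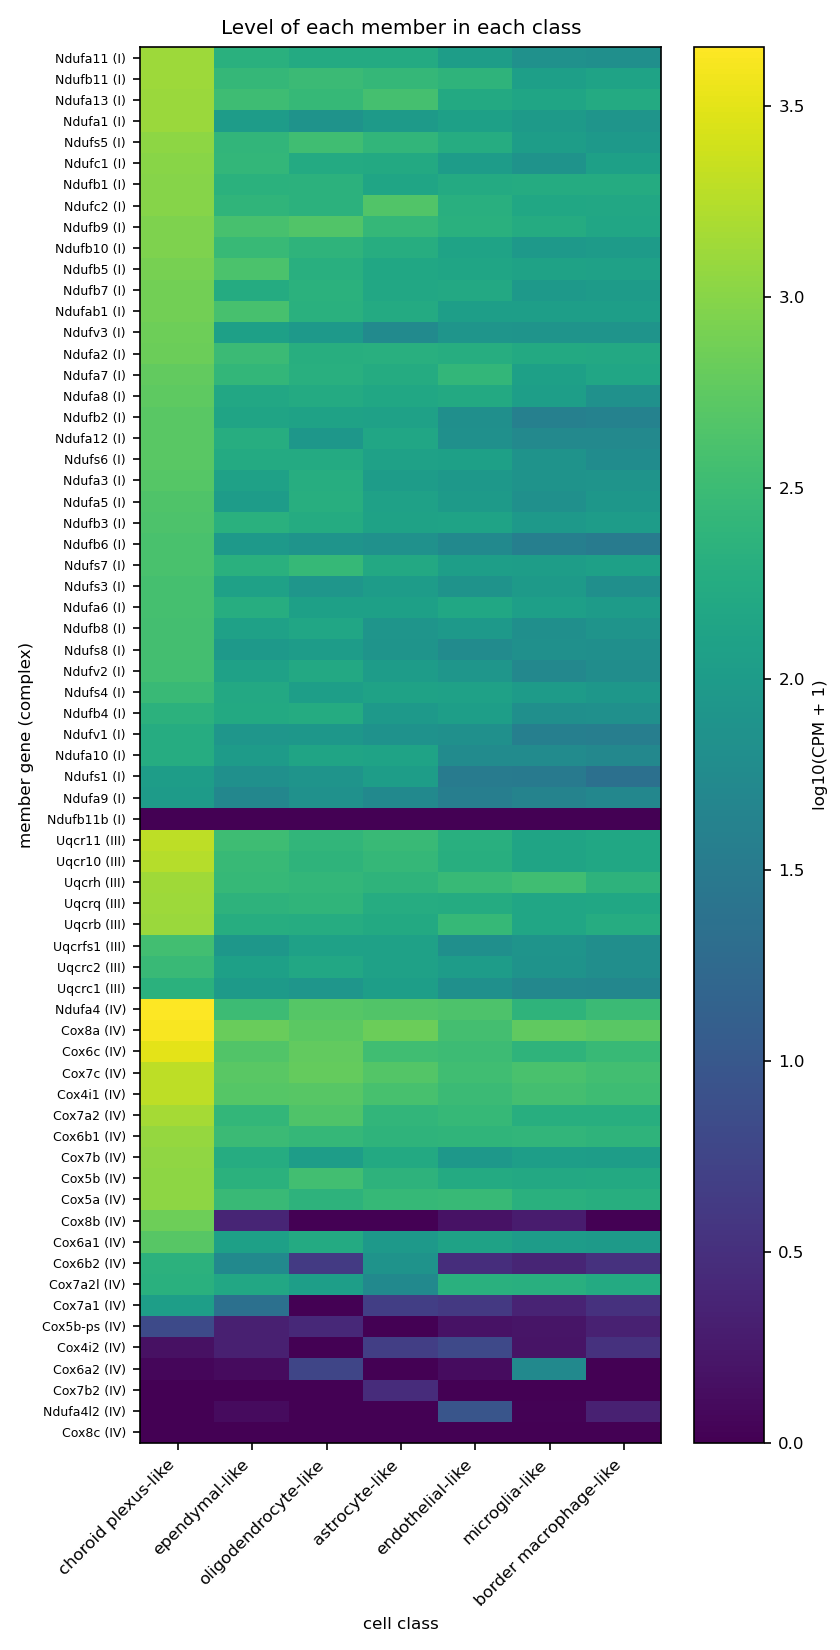
Level of 66 of the 67 members in each of the 7 classes, as log10(CPM + 1), ordered within complex I, III and IV by the choroid plexus-like level. The choroid plexus-like column is the brightest for nearly every row. The dark rows near the bottom are tissue isoforms, among which Cox6a2 is brightest in the microglia-like column (53.0 CPM).

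Among other mitochondrial genes, ATP synthase had ratios as high as the members and the cycle, import and assembly genes lower ones. ATP synthase subunits were 5.61-fold higher in sum in choroid plexus-like cells, with 17 of 18 past 2-fold (background 8.53%) and Atp5mc1, a gene for the proton-carrying c subunit, at 17.5-fold. Cyc1, the cytochrome c1 of complex III, whose symbol falls outside the rule, was 3.48-fold higher, and Cycs, the cytochrome c that complex III reduces, 6.92-fold. Complex II, the chain's only complex made wholly of nuclear subunits, was 2.30-fold higher in sum, with Sdhd at 3.34-fold and Sdha at 1.40-fold. With median-of-ratios scaling, the sums were 7.96-fold higher for complex I, 10.8-fold for complex III, 11.4-fold for complex IV, 9.73-fold for ATP synthase and 4.01-fold for complex II.

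Tricarboxylic acid cycle genes were 2.70-fold higher in sum (8 of 13 past 2-fold, background 8.53%), with Idh3a at 6.34-fold and Cs, citrate synthase, at 1.10-fold. Outer membrane and import genes were 2.77-fold higher (8 of 13), with Tomm7 at 4.71-fold. Assembly factors of complex I were 1.42-fold higher (3 of 16 past 2-fold, background 8.53%, and 2 below 1/2, background 55.8%). Those of complexes III and IV were 2.24-fold higher (8 of 21, and 1 below), with Cox20 at 7.48-fold. With median-of-ratios scaling these 4 lists were at 4.76 (11 of 13 past 2-fold), 4.79 (12 of 13), 2.496 (9 of 16) and 3.86 (13 of 21), with 0 below 1/2, and complex I assembly factors were at 1.84 (6 of 16, 0 below) with the reduced total. Of all 10489 features, 1950 were past 2-fold higher and 4136 lower with median-of-ratios scaling, and 1317 and 5005 with the reduced total. Genes for regulators of mitochondrial biogenesis were at 0.595 of the others' mean in sum, or 0.771 with the reduced total and 1.04 with median-of-ratios scaling, which turns the direction, with 1 of 10 past 2-fold higher (Esrra, an orphan nuclear receptor, 2.08; background 8.53%) and 4 past 2-fold lower, among them Nrf1 (0.123). The background for lower is 55.8% of all features, above the shares of the regulators and of the assembly factors. Relative to the median of all features these ratios lie higher, since most features were lower in this class. Cytosolic ribosomal protein genes were at 1.06 in sum (1.37 and 1.73 with the other scalings).

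**Figure D4:**
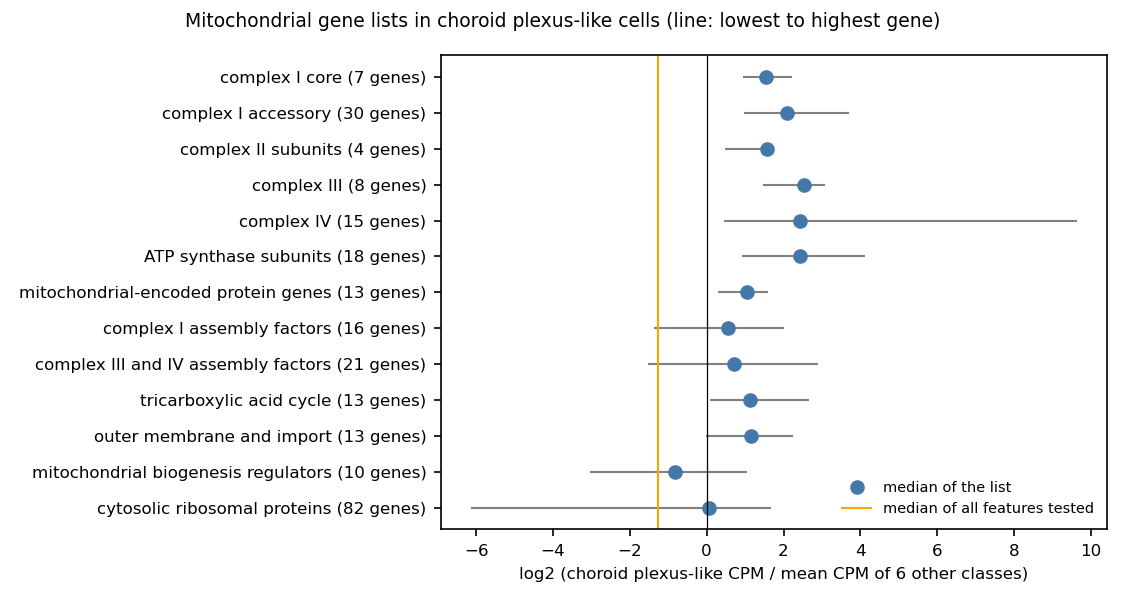
Log2 ratio of gene lists in choroid plexus-like cells to the mean of the 6 other classes. Dots are list medians over the tested genes, grey lines run from the lowest to the highest gene, and the orange line is the median of all features (-1.26). Complex III, complex IV and ATP synthase have the highest medians (2.53, 2.43 and 2.42), and biogenesis regulators the lowest (-0.81, or 0.07 with median-of-ratios scaling).

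Transcripts of the 13 mitochondrial-encoded protein genes followed another order. They made up 4.43% of UMIs in astrocyte-like and 3.85% in choroid plexus-like cells, 1.84% in ependymal-like, 1.82% in endothelial-like, 1.66% in oligodendrocyte-like, 1.13% in border macrophage-like and 0.790% in microglia-like cells. In choroid plexus-like cells they were 1.98-fold above the other classes' mean, with 7 of 13 past 2-fold (background 8.53%), from mt-Nd6 (log2 ratio 0.30) to mt-Nd1 (1.59). With the reduced total they were 2.55-fold above it (11 of 13, and 1317 of all 10489 features). With median-of-ratios scaling they were 3.55-fold above it (13 of 13, and 1950 of all 10489 features). The 2 genomes' shares therefore stood in different proportion. For each mitochondrial UMI there were 1.42 member UMIs in choroid plexus-like cells (binomial interval 1.42 to 1.43), 0.953 in microglia-like (0.945 to 0.960), 0.747 in oligodendrocyte-like (0.725 to 0.769), 0.690 in ependymal-like (0.682 to 0.698), 0.646 in border macrophage-like (0.626 to 0.667), 0.494 in endothelial-like (0.489 to 0.499) and 0.244 in astrocyte-like cells (0.237 to 0.252). Neuron-like cells had 1.88 (1.72 to 2.04).

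Astrocyte-like cells, the type the vector was meant for, varied widely from cell to cell. Their median member share was 0.729%, with quartiles of 0.313% and 1.37%. In the 59 cells under the class's median depth, a split chosen after seeing the data, the members made up 0.570% of UMIs, mitochondrial-encoded transcripts 5.87% and cytosolic ribosomal protein genes 1.57%. In the 60 cells at or above it the same shares were 1.25%, 3.96% and 3.26%. The low-depth cells were thus low in members and ribosomal genes and high in mitochondrial transcripts, and the part of RNA quality in the class's level was not tested. In choroid plexus-like and endothelial-like cells these groups differed less, 5.59% against 5.43% and 0.913% against 0.893%. The share was also lower in the shallower microglia-like cells (0.646% against 0.809%) and ependymal-like cells (1.16% against 1.32%). It was 0.722% against 0.737% in border macrophage-like and 1.25% against 1.24% in oligodendrocyte-like cells.

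Because choroid plexus-like cells enter the mean that the other classes are compared with, those classes were mostly below it. At least 2-fold lower were 40 of 60 members in microglia-like (background 37.2%), 46 in border macrophage-like (33.8%), 27 in endothelial-like (30.9%), 11 in astrocyte-like (24.8%), 9 in oligodendrocyte-like (31.9%) and 3 in ependymal-like cells (21.2%). In these 6 classes 0 of the 60 tested members were at least 2-fold higher, where 10.4%, 11.1%, 11.7%, 15.9%, 12.7% and 17.0% of all features were. Cox6a2, described below, was under the level filter and not tested. The counts of lower members depend on the scaling. With median-of-ratios scaling they were 46 in microglia-like (background 32.6%), 55 in border macrophage-like (32.0%), 44 in endothelial-like (31.9%), 45 in astrocyte-like (33.8%), 24 in oligodendrocyte-like (33.8%) and 27 in ependymal-like cells (29.1%), so that the last 3 went from below the background to above it. Without choroid plexus-like cells in the mean, an alternative chosen after seeing the data, the summed ratio was 1.35 in ependymal-like, 1.31 in oligodendrocyte-like, 1.11 in astrocyte-like, 0.885 in endothelial-like, 0.721 in microglia-like and 0.698 in border macrophage-like cells. The first 3 of these lay on the other side of 1 when choroid plexus-like cells were in the mean.

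Without choroid plexus-like cells in the mean, the share of members past 2-fold was below the background in each of the 6 classes. In ependymal-like cells, which line the ventricles and beat cilia, 5 of 58 tested members were at least 2-fold higher (background 17.4%) and 0 lower (background 23.1%). They were Cox6b2 (3.13), Ndufb5 (2.81), Ndufab1 (2.79), which encodes the mitochondrial acyl carrier protein, Ndufa12 (2.35) and Ndufc1 (2.05). Ndufb5 was at 418 CPM there and at 124 to 199 CPM in the other 5 classes, and Ndufab1 at 395 CPM and 109 to 207 CPM. In astrocyte-like cells 3 members were past 2-fold higher (background 15%), Cox6b2 (5.89), Ndufs1 (2.36) and Ndufc2 (2.32), and 1 lower (background 25.6%), Cox7a2l (0.322). Ndufc2 was at 456 CPM there and at 151 to 248 CPM in the other 5 classes. In oligodendrocyte-like cells Ndufa5 (2.07) and Ndufa3 (2.01) were past 2-fold higher (background 12.4%) and Cox6b2 (0.148) lower (background 32.7%).

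Microglia-like cells had 9 members past 2-fold lower in that comparison (background 37.8%), among them Cox6b2 (0.0507) and Ndufb2 (0.389), and 0 higher (background 9.05%). Cox6a2, at 53.0 CPM in microglia-like cells, was not tested, because its mean over the 6 classes (9.74 CPM) was under the level filter. Border macrophage-like cells had 10 lower (background 33.6%), among them Ndufs1 (0.351) and Ndufb2 (0.423), and 0 higher (background 9.37%). Endothelial-like cells had 1 lower (Cox6b2, 0.0765; background 31.0%) and 0 higher (background 10.9%), with Uqcrb highest at 1.61. With total UMIs, the shares of tested members past 2-fold were below the background in all 6 classes and both directions.

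The 8 tissue isoforms did not share 1 pattern. They were compared with their ubiquitous partner as a share of the UMIs of the pair; both are read at their 3′ ends with no scaling for length. Cox8b was found almost only in choroid plexus-like cells, with 4508 UMIs (707 CPM, 686 to 728) against 23 in the other 6 classes together. It made up 14.4% of Cox8a and Cox8b UMIs there (Clopper-Pearson interval 14.0 to 14.8). At least 1 Cox8b UMI was in 458 of 563 choroid plexus-like cells (81.3%), and in 59.6% of them after thinning to 2000 UMIs, against 0.919% of ependymal-like and 0.453% of microglia-like cells before thinning.

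Cox6b2, known as the testis form, was shared by 3 classes. It made up 23.8% of its pair with Cox6b1 in astrocyte-like (17.5 to 31.0; 39 UMIs), 15.8% in choroid plexus-like (15.04 to 16.56) and 14.9% in ependymal-like cells (13.1 to 17.0), and 0.541% to 1.18% in the other 4. The astrocyte-like UMIs came from 17 of 119 cells, and 1 astrocyte-like cell held 13. Cox7a1, the heart and skeletal muscle form, was present in choroid plexus-like cells at 111 CPM and in ependymal-like cells at 21.7 CPM. Its share of the pair with Cox7a2 was 7.06% (6.56 to 7.58) and 7.60% (6.06 to 9.38), 2 intervals that overlap. In the other 5 classes it was 0 to 1.48%.

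Cox6a2, also a heart and skeletal muscle form, was found chiefly in microglia-like cells. Microglia-like cells held 887 UMIs (53.0 CPM, 49.6 to 56.7), 34.2% of Cox6a1 and Cox6a2 UMIs (32.3 to 36.0). The other 6 classes held 0 to 3 UMIs each, and border macrophage-like cells, the nearest related class, 0 of 198 cells, which allows a share of up to 1.52% of cells with a UMI (3 counts of the total). A UMI was seen in 20.1% of microglia-like cells (18.5 to 21.7), and in 6.43% after thinning to 2000 UMIs. B cell-like cells were the only other class with a comparable share, 42.2% of the pair from 19 UMIs in 27 cells (27.7 to 57.8). Of these 27 cells, 19 lay just inside the limits of the gate. Of the unassigned clusters, one of 77 cells held 128 CPM and one of 89 cells 170 CPM.

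Cox6a2 also varied within microglia-like cells. By cluster it ran from 6.71 CPM (4.04 to 10.5) to 74.6 CPM (66.6 to 83.4). In the RefSeq table the next protein-coding genes on one side are Itgad and, beyond it, Itgax, which encode integrin chains, and on the other side 9130023H24Rik, for which no value was read, and then Armc5. In microglia-like cells Itgad was at 2.27 CPM, Itgax at 85.6 CPM and Armc5 at 25.5 CPM. Itgax had 15 UMIs in endothelial-like, 2 in choroid plexus-like and 1 in ependymal-like cells. Like Cox6a2, it had 0 in border macrophage-like and astrocyte-like cells, and it also had 0 in oligodendrocyte-like cells. In oligodendrocyte-like cells Itgad was at 70.6 CPM, where Cox6a2 had 3 UMIs. Whether reads from a neighbouring transcript were counted as Cox6a2 was not tested.

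**Figure D5:**
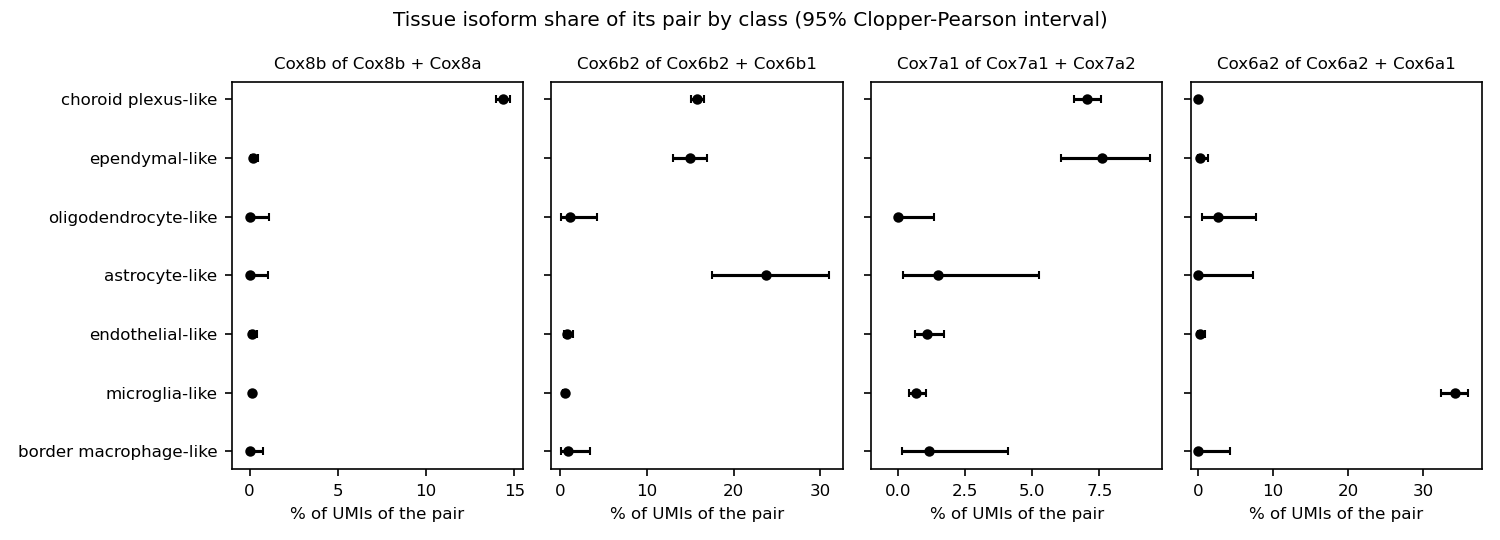
Share of UMIs of an isoform pair that came from the tissue isoform, by class, with 95% Clopper-Pearson intervals for counting error. Cox8b is near 0 outside choroid plexus-like cells (14.4%), Cox6b2 is high in 3 classes, Cox7a1 in 2, and Cox6a2, among these 7 classes, is highest in microglia-like cells (34.2%).

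Ndufa4l2 and Cox4i2, both known to respond to low oxygen, were at low levels in endothelial-like cells, with 48 UMIs (8.10 CPM) and 32 UMIs (5.40 CPM). The 4 mural-like cells alone held 3 and 4 UMIs, 252 and 336 CPM, and the part of mural RNA in the endothelial-like values was not tested. Cox7b2 had 1 UMI in the 7 classes, in an astrocyte-like cell. Cox8c and Ndufb11b had 0 UMIs in them. Cox5b-ps, at 5.65 CPM in choroid plexus-like cells (36 UMIs), cannot be told apart from misassigned reads of Cox5b.

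Within microglia-like cells the members differed little between states gated on markers. In the 1346 cells of the cytokine state (Il1b, Tnf and chemokine genes) the members made up 0.691% of UMIs against 0.815% in the other microglia-like cells, a ratio of 0.848 (0.838 to 0.857). Their median depth was 5967 against 7317.5 UMIs, and microglia-like cells under the median depth held 0.646% against 0.809% in the deeper cells, so depth moved with the state and its part was not tested. The ratio was 1.09 (1.07 to 1.11) in 162 interferon-state cells and 1.20 (1.16 to 1.25) in 42 damage-associated-state cells, both deeper than the rest (medians of 7347 and 8797.5 UMIs). The cycling gate took 0 cells.

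Cox6a2 was the single member past 2-fold between these states. It was at 137 CPM in the damage-associated state against 51.2 CPM in the rest (ratio 2.68, 1.97 to 3.58; 1 of 58 tested members higher, background 4.48%, and 0 lower, background 7.25%). It was at 32.4 CPM in the cytokine state against 73.8 CPM (ratio 0.440, 0.380 to 0.508; 1 of 58 lower, background 1.56%, and 0 higher, background 0.88%). Itgax, the second gene from it, is among the markers that gate the damage-associated state. In the interferon state 0 of 58 members were past 2-fold in either direction (background 2.07% higher and 1.88% lower).

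Endothelial-like states were closer still. The ratio to the other endothelial-like cells was 1.02 in 1137 capillary (1.00 to 1.04), 1.05 in 27 arterial (0.981 to 1.12) and 0.953 in 22 venous cells (0.890 to 1.02). No member of 57 was past 2-fold in capillary cells (background 0.696% higher and 1.89% lower). In arterial cells 2 of 59 were higher (background 15.8%), Ndufa4l2 with 7 UMIs and Cox4i2 with 3, and 2 lower (background 8.62%), Ndufa3 and Ndufs8. Ndufa4l2 and Cox4i2, at 7.04 and 4.98 CPM in the other endothelial-like cells, passed the level filter only through the arterial cells. Their higher level was thus fixed by the filter. In venous cells 1 of 57 was higher (Ndufa8; background 13.5%) and 5 lower (background 9.14%), all counted from few cells.

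EGFP UMIs were found in 42 of 544 ependymal-like cells, the class with most of them. The members made up 1.24% of UMIs in those 42 cells and 1.27% in the other 502, a ratio of 0.980 (0.949 to 1.01). Past 2-fold were 0 of 59 tested members higher (background 4.95%) and 0 lower (background 3.13%). Mitochondrial-encoded transcripts were at 1.73% and 1.85%. A cell without an EGFP UMI may still hold the vector. Only 2 of 119 astrocyte-like cells had an EGFP UMI, and no such comparison was made there.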

How the data were processed

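Hippocampal cells of 5 pooled mice were profiled by droplet 3′ RNA sequencing in 1 library. The authors deposited raw UMI counts per gene and barcode. Per the submitters' processing notes, GRCm39 and Cell Ranger 8.0.1 were used. No source used here names the annotation. Of 6672 barcodes with 41915122 UMIs, 187 with under 500 genes or over 15% mt- UMIs were removed, and Scrublet (scanpy 1.11.5, expected rate 0.05) marked 261 more as doublets (4.02%). Cells were assigned to a class when at least 4 of its 8 markers had a UMI and at least 3 more than of any other class. UMIs were summed per class and divided by all its UMIs (CPM), with 95% Poisson, binomial or Clopper-Pearson intervals (scipy 1.17.1). Class ratios are to the unweighted mean of the other classes of at least 50 cells, with 0.5 UMI added for the count of features past 2-fold, and features needed a mean of 10 CPM. With 1 library no p-value was computed. PCR duplicates are collapsed by UMIs, but cells of a pool are not independent samples, so intervals cover counting error only.

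Members and gene lists were chosen with earlier results of these data known. The members named are, in each class, the 3 of highest and the 3 of lowest ratio among those at 20 CPM or more, every tissue isoform, and members past 2-fold; others were named as examples of a complex after their values were seen. The separate levels of some genes are not reported here. All 112 list symbols matched, and 1 symbol with 2 gene IDs was read from the ID with more UMIs. The class comparison was tested on simulated Poisson counts drawn from a profile shared by all classes, with known changes in a single class. That test does not cover the differences in composition between the real classes or the spread between cells. Promoter windows are from RefSeq (GRCm38.p6), another build than the files', and no coordinates were carried between them. Alternatives changed the cell filter, doublets, gate, classes (Leiden clusters), weighing of cells, totals, scaling, fold, level filter and depth.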

Additional observations from a re-analysis of the deposited data

How the results depend on the processing

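The summed member ratio of choroid plexus-like cells (5.50) was 5.48 with at least 1000 genes and at most 10% mt- UMIs, 5.47 with the stricter gate (5 markers and a difference of 4), 5.45 with the looser one (3 and 2) and 5.52 by Leiden clusters. It was 5.85 with each cell weighted equally, 7.11 with mt- UMIs and genes above 1% left out of the total, 9.59 with median-of-ratios scaling, and 5.47 with choroid plexus-like cells under 8000 UMIs only, an alternative added after seeing the data. At least 2-fold higher were 56 to 60 members under the alternatives that kept the fold and the level filter (background 8.47% to 20.5%). With no level filter 4 members were at least 2-fold lower there, of 65 with a UMI (background 63.9%).

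For the other classes the ratio moved beyond its counting interval as follows. Astrocyte-like cells were at 0.651 with the stricter cell filter, against 0.627. With the stricter gate microglia-like cells were at 0.419 and ependymal-like at 0.754, and with the looser gate border macrophage-like cells were at 0.438 and ependymal-like at 0.735. By Leiden clusters microglia-like cells were at 0.420 and endothelial-like at 0.517. With each cell equal the values were 0.407 (microglia-like), 0.524 (endothelial-like), 0.733 (ependymal-like), 0.502 (astrocyte-like) and 0.753 (oligodendrocyte-like). With the reduced total they were 0.371 (microglia-like), 0.366 (border macrophage-like), 0.423 (endothelial-like), 0.624 (ependymal-like), 0.559 (astrocyte-like) and 0.641 (oligodendrocyte-like). With median-of-ratios scaling they were 0.373, 0.334, 0.378, 0.475, 0.399 and 0.512 in the same order. Without choroid plexus-like cells in the mean, also added after seeing the data, they were 0.721, 0.698, 0.885, 1.35, 1.11 and 1.31, so the last 3 changed direction by construction of the mean. Counts of members at least 2-fold lower were larger with median-of-ratios scaling, going from 27 to 44 (endothelial-like; 31.9% of all features lower under that scaling), 3 to 27 (ependymal-like; 29.1%), 11 to 45 (astrocyte-like; 33.8%) and 9 to 24 (oligodendrocyte-like; 33.8%). They were 31 in astrocyte-like cells with each cell equal (28.4% of all features), and 7 in ependymal-like cells with the reduced total (23.0%) or no level filter (30.8%). At a fold of 1.5 they were 45, 18, 30 and 20 in those 4 classes (39.9%, 29.9%, 33.9% and 39.7% of all features). Higher at that fold were 2 ependymal-like, 2 astrocyte-like and 1 oligodendrocyte-like member (25.5%, 26.2% and 21.0% of all features). With no level filter 1 member was higher in microglia-like cells (8.96% of all features) and 2 each in endothelial-like (10.1%) and astrocyte-like cells (28.6%).

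Among microglia-like states the ratio was 1.13 (interferon), 1.27 (damage-associated) and 0.832 (cytokine) with cells thinned before gating, and 1.11, 1.29 and 0.828 with each cell equal, all in the same direction as before. The ratio in EGFP-positive ependymal-like cells stayed within its interval under all 4 alternatives (0.962 to 0.985). No paired analysis was possible because the series has 1 library of RNA. Depth limits the small classes and the rare isoforms, where few UMIs lie behind a value.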
